A study of Mus musculus with 8 samples.

Results

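The mRNA levels of 10 genes that handle stored and circulating triglyceride, or that cleave ester lipids, were described in the left ventricle of control mice and of mice with angiotensin II (ANG II)-induced hypertensive left ventricular hypertrophy. The genes were the carboxylesterase Ces1d, the secreted phospholipase Pla2g5, the intracellular lipases Pnpla2, Lipe and Mgll, lipoprotein lipase (Lpl) with its carrier Gpihbp1 and its inhibitor Angptl4, and the lipid-droplet coat proteins Plin5 and Plin2. They were picked by name, and each matched 1 of the 55679 genes of the deposited expression table. The list was drawn up with the ANG II against control comparison already known, so the difference between the groups is given for them as a description, with no p-value.

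The animals were wild-type C57BL/6J males that each carried a subcutaneous osmotic pump. Over 7 days the pump delivered saline in the control group (n = 4) and 1500 ng/kg/min of ANG II in the ANG II group (n = 4). ANG II is a peptide that constricts vessels and raises blood pressure. The mice carried no other allele or agent per the labels, their age was not given in the sources used here, and the hearts of both groups were flushed with saline before the ventricle was removed. Poly(A) RNA of the whole ventricle was sequenced, and values were scaled to the library's total. A lower value may thus come from fewer cells of a type, less RNA per cell or a larger share of other RNA. These cannot be told apart.

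Triglyceride in the heart is kept in lipid droplets and is hydrolysed in a chain of steps. PNPLA2 (adipose triglyceride lipase) removes the first fatty acid with the help of the coactivator ABHD5, LIPE (hormone-sensitive lipase) acts on the diglyceride, and MGLL (monoacylglycerol lipase) splits the remaining monoglyceride. PLIN5 coats droplets in oxidative tissues and binds PNPLA2 and ABHD5, whereas PLIN2 coats droplets in most cell types. Triglyceride from the blood is cleaved at the capillary wall by LPL, which GPIHBP1 carries across the endothelial cell and which ANGPTL4 inactivates. CES1D is an esterase of the endoplasmic reticulum lumen that hydrolyses triglyceride, cholesteryl esters and ester drugs, and is best known from liver and fat. PLA2G5 is a group V secreted phospholipase A2 that releases the middle fatty acid of phospholipids, and heart is among the tissues in which it is known to be abundant.

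Promoter windows from RefSeq on GRCm38.p6, each reaching 250 bases before a transcription start, were held for 6 of the 10 genes (10 windows): Pla2g5, Pnpla2, Lipe, Mgll, Plin5 and Plin2. Pla2g5 and Plin5 each had 2 windows, of which the one farther upstream is shown. The windows of Pla2g5, Pnpla2, Plin5 and Plin2 were chosen because the levels of the first 3 were lower in every ANG II library than in every control library, and that of Plin2 lay mostly the other way. Capitals mark motifs that were searched on both strands, and bases that GENCODE M21 places in an exon were left off the end. The windows are, in order, chr4:138863483-138863719 (minus strand), chr7:141454938-141455187 (plus strand), chr17:56117597-56117798 (minus strand) and chr4:86670061-86670309 (minus strand), each written 5′ to 3′ along its gene.
Pla2g5: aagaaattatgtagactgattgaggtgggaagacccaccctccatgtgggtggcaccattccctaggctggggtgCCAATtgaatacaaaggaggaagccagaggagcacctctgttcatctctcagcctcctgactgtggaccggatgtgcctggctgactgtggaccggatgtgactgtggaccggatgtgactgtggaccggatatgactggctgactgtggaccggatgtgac
Pnpla2: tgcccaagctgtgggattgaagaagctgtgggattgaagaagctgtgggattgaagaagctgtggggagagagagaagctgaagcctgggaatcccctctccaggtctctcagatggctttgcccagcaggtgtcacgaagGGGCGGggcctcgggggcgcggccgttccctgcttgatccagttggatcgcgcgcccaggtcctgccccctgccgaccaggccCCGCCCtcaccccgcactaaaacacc
Plin5: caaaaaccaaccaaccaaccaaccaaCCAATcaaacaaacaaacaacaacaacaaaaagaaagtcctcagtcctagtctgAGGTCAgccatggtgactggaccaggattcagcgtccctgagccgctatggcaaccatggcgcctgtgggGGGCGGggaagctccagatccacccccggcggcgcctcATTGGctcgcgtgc
Plin2: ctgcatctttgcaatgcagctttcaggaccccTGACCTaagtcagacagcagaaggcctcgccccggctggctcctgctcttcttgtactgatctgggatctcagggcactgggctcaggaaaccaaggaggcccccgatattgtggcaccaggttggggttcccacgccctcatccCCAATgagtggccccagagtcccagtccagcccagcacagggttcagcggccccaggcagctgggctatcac

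The Pla2g5 window shown held a CCAAT box (CCAAT) beginning 175 bases before the start. The other Pla2g5 window (chr4:138819258-138819507) held CCAAT at 144 and a reversed nuclear receptor half-site (AGGTCA) at 74 bases before its start. The Pnpla2 window held 2 GC boxes (GGGCGG), 109 bases before the start and, on the other strand, 26 before it. The Plin5 window shown held CCAAT at 224 and, reversed, at 62 bases before the start, a half-site at 170 and a GC box at 100, and the other Plin5 window held 2 GC boxes, at 239 and 53. The Plin2 window held a reversed half-site at 218 and CCAAT at 73 bases before the start. These motifs are common: of 32851 mouse promoter windows of the same length, 33.8% held CCAAT, 32.7% held GGGCGG and 14.0% held AGGTCA. The direct repeat read by PPAR receptors (AGGTCA, any 1 base, AGGTCA), which also counts as a half-site, stood in 11 of the 32851 windows (0.0335%) and in none of the 10 windows of these genes. No TATA box (TATAAA, 12.4% of all windows) and no MEF2 core (CTA, any 4 bases, TAG; 3.20%) stood in the 10 windows either, and CACGTG (6.02%) stood in 2 of them, of Lipe and Mgll. A match describes the letters of a window and not a bound site.

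Values are FPKM, the fragments of a gene scaled by its transcript length and by the library's total, so levels of different genes are on a scale per length. The steps between low FPKM values gave 14456095 to 16565553 fragments per library. The 10 genes were measured with between 134 fragments (Pla2g5 in its lowest library) and 104459 (Lpl in its highest), and counting error weighed most on the lowest values of Pla2g5 and Angptl4. The labels call the tissue left ventricle, although their RNA protocol names CRC cells. The summed level of 10 cardiomyocyte markers was 52518 to 53409 FPKM in control and 39796 to 42475 FPKM in ANG II, with none at 0. In the whole table, genes were compared with limma on log2(FPKM + 1), and the term called stands for an adjusted p under 0.05 together with a log2 fold change over 0.5 in size. Of 19364 genes tested, 2981 were called (15.4%), 2708 higher (14.0%) and 273 lower (1.41%) in ANG II, and the median log2 fold change of all genes tested was 0.15. The groups did not overlap for 6535 genes (33.7%), with ANG II lower for 980 of them (5.06%) and higher for 5555 (28.7%). Among the 10 genes, control 2 was often the highest control library and ANG II 2 often the lowest ANG II library, and the values without them are given beside the genes for which they differed most.

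All 10 genes passed the filter of a mean of at least 0.1 FPKM. Of the 10, 2 were called, Ces1d and Pla2g5, both lower (15.4% of all genes tested were called in either direction and 1.41% lower). The groups did not overlap for 4 of the 10, Ces1d, Pla2g5, Pnpla2 and Plin5, all lower in ANG II (33.7% of all genes tested did not overlap in either direction and 5.06% with ANG II lower). The list was chosen on this comparison, so nothing is read from these counts. Among all 19364 fold changes of log2(FPKM + 1), that of Ces1d was the lowest and that of Pla2g5 the 8th lowest. This scale understates the changes of low genes, so the places hold on this scale alone. Pnpla2 stood at place 1046 and Plin5 at place 1059 from the lowest, and the other 6 genes lay between place 3286 (Lpl) and place 15036 (Angptl4).

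**Figure D1:**
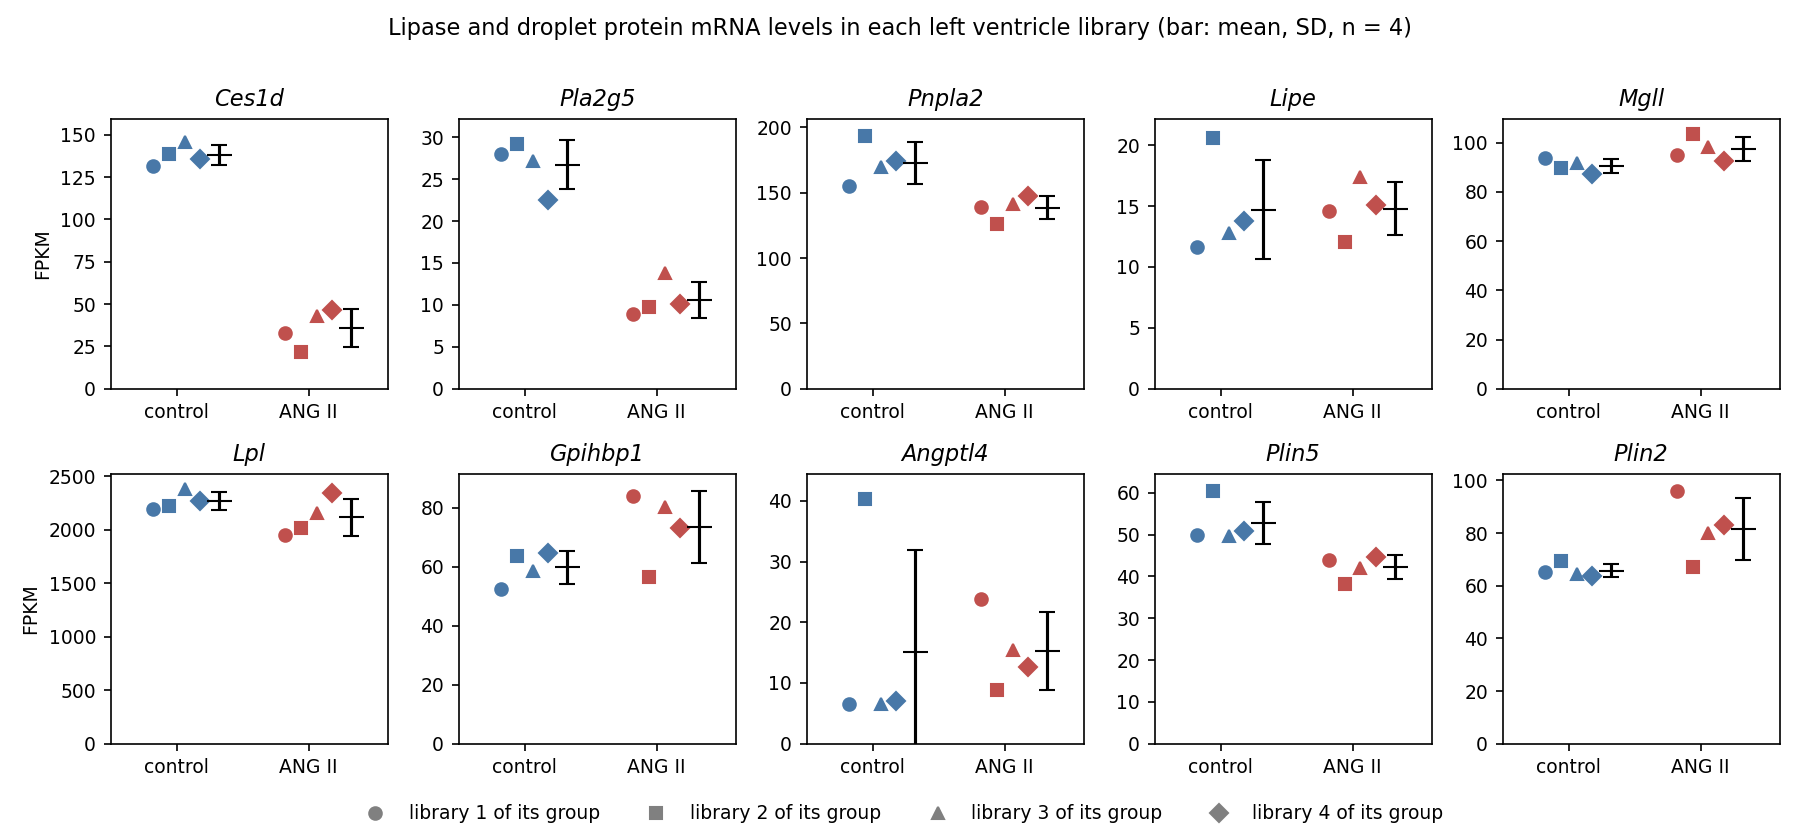
FPKM (vertical axis, from 0) of the 10 genes in each control (blue) and ANG II (red) library, with the mean and SD (n = 4) as black bars; the SD bar of Angptl4 in control reaches below 0 and is cut at the axis. Ces1d lay between 131.6 and 145.7 FPKM in control and between 21.8 and 46.5 FPKM in ANG II, and control 2 stood at 40.3 FPKM for Angptl4 against 6.57 to 7.00 FPKM in the other control libraries.

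Ces1d (ENSMUSG00000056973; GRCm38 chromosome 8, 93166068 to 93197838, minus strand) was the member that differed most. Its level was 131.6, 138.9, 145.7 and 135.4 FPKM in control 1 to 4 and 32.7, 21.8, 43.2 and 46.5 FPKM in ANG II 1 to 4. The groups lay far apart, and the highest ANG II library stood well under the lowest control library. The mean was 138 ± 5.997 FPKM in the controls and 36.1 ± 11.2 FPKM with ANG II (± SD of 4 libraries), so that the ANG II mean was 26.1% of the control mean, a log2 fold change of -1.96 (SE 0.19). The ANG II libraries varied more among themselves than the control libraries, with an SD of log2 levels of 0.48 against 0.062. ANG II 2 was the lowest of them, and without it the log2 fold change was -1.75. Over 9 other ways of processing, the value lay between -2.19 and -1.96.

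Ces1d sits in a cluster of carboxylesterase genes, and 8 relatives lie within 500000 bases of it: Ces1a, Ces1b, Ces1c, Ces1e, Ces1f, Ces1g, Ces1h and Ces5a. The highest value of these 8 in any library was 0.488 FPKM, that of Ces1e, which lies 3380 bases from Ces1d. The Ces1d transcripts share 1.08% of their 50-base words with other genes, most of them with Ces1b. Because Ces1d is also a gene of fat and liver, markers of both were read. Of the adipocyte markers, 7 genes summed to 146 to 196 FPKM in control and 195 to 259 FPKM in ANG II, nearly all of it Fabp4, which heart endothelium also makes. The other 6 summed to 0.673 to 7.30 FPKM in control and 0.898 to 13.7 FPKM in ANG II, and Lep was at 0 in 7 of 8 libraries. Hepatocyte markers (4 genes) summed to 0.0509 to 0.0583 FPKM in control and 0.0529 to 0.681 FPKM in ANG II, with Serpina1a at 0 in all libraries and Alb and Apoa1 at 0 in all control libraries. The part of fat or liver RNA in the Ces1d values was not tested.

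Pla2g5 (ENSMUSG00000041193; chromosome 4, 138799244 to 138863482, minus strand), whose promoter window is shown above, was the other gene called. Its level was 27.9, 29.2, 27.2 and 22.5 FPKM in control 1 to 4 and 8.88, 9.71, 13.8 and 10.1 FPKM in ANG II 1 to 4. The groups did not overlap, and control 4 and ANG II 3 were the libraries nearest to the other group. The mean was 26.7 ± 2.90 FPKM in the controls and 10.6 ± 2.16 FPKM with ANG II (± SD of 4 libraries), the latter 39.7% of the former, with a log2 fold change of -1.27 (SE 0.13). The value lay between -1.51 and -1.27 over the 9 other ways of processing and between -1.39 and -1.20 with 1 library left out. The relatives of Pla2g5 within 500000 bases are Pla2g2a, Pla2g2c, Pla2g2d, Pla2g2e and Pla2g2f. Their highest value was 1.80 FPKM (Pla2g2d), and Pla2g2a, which lies inside the span of Pla2g5 on the other strand, was listed at 0 in all libraries. The summed cardiomyocyte markers, given above, were lower in each ANG II library too, and 2 of those 10 were called, both lower (Myh6 and Tnni3). The sum rests on a few very abundant genes. Of the 10, 8 had a lower mean in ANG II, and Mybpc3 (805 and 931 FPKM) and Ryr2 (395 and 411 FPKM) had a higher one, without a call. The part of this shift in the Ces1d and Pla2g5 values, and in the lower values of Pnpla2, Plin5, Dgat2 and Fitm1 given below, was not tested.

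The genes with the profile most like that of Ces1d and Pla2g5 were sought among 11818 genes whose mean reached 1 FPKM, the 10 members and genes with only an ID or clone name left out, by the root mean square (RMS) difference between log2 levels centred on each gene's own mean over the 8 libraries. The nearest to Pla2g5 were Mylk4 (RMS difference 0.13), Phkg1 (0.13), Hopx (0.17), Epha4 (0.19) and Lingo3 (0.20). Mylk4 encodes a myosin light chain kinase, and its level was 64.2 ± 5.82 FPKM in the controls and 27.6 ± 4.03 FPKM with ANG II (± SD of 4 libraries). Phkg1, a catalytic subunit of glycogen phosphorylase kinase, was at 16.8 ± 1.74 and 6.96 ± 2.01 FPKM, and Hopx, a small homeodomain protein of cardiomyocytes, at 57.6 ± 5.68 and 29.1 ± 6.66 FPKM. The nearest to Ces1d were Epha4 (RMS difference 0.38), Phkg1 (0.44), Mylk4 (0.47), Lrrc4b (0.48) and Lrrc15 (0.51). Epha4, an ephrin receptor, was at 22.4 ± 3.23 FPKM in the controls and 8.31 ± 1.73 FPKM with ANG II. Mylk4, Phkg1 and Epha4 were near to both genes. Pla2g5, left out as a member, differed from Ces1d by 0.44, less than Mylk4, Lrrc4b and Lrrc15 did. All these profiles share the same 8 libraries and a lower level in ANG II, so the distances are a description.

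Of the intracellular lipases, Pnpla2 (ENSMUSG00000025509; chromosome 7, 141455198 to 141460743, plus strand) was the most abundant. Its level was 155, 193, 169 and 174 FPKM in control 1 to 4 and 139, 126, 142 and 147 FPKM in ANG II 1 to 4. The groups did not overlap, but the gap between control 1 and ANG II 4 was narrow. The mean was 173 ± 15.9 FPKM in the controls and 139 ± 8.96 FPKM with ANG II (± SD of 4 libraries), 80.1% of control, with a log2 fold change of -0.32 (SE 0.073), short of the 0.5 needed for a call. It was -0.26 without control 2 and -0.27 without ANG II 2. Its size depended on how libraries were scaled to each other, and reached -0.54 with the median-of-ratios scaling, under which it passed both thresholds.

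Lipe (ENSMUSG00000003123; chromosome 7, 25379527 to 25398710, minus strand) was far less abundant. Its level was 11.7, 20.6, 12.8 and 13.8 FPKM in control 1 to 4 and 14.6, 12.04, 17.4 and 15.1 FPKM in ANG II 1 to 4. The groups overlapped, and control 2 was above every other library. The log2 fold change was 0.03 (SE 0.16) and turned sign in 6 of 17 alternatives, with 0.19 (SE 0.12) without control 2 and 0.12 (SE 0.17) without ANG II 2, so no direction is given. In GENCODE M21, 15.6% of its exon length lies under 4732471J01Rik on the other strand, and whether fragments were counted by strand was not stated.

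Mgll (ENSMUSG00000033174; chromosome 6, 88724412 to 88828360, plus strand) had the smallest SD relative to its mean of the 10 genes in each group. Its level was 93.6, 89.7, 91.6 and 87.1 FPKM in control 1 to 4 and 95.0, 103.7, 98.1 and 92.4 FPKM in ANG II 1 to 4. The groups overlapped by a single library of each, since control 1 exceeded ANG II 4. The log2 fold change was 0.10 (SE 0.049) as deposited and -0.12 with the median-of-ratios scaling, so its sign followed the scaling.

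The summed level of Ces1d, Pnpla2, Lipe and Mgll was 416 ± 21.2 FPKM in control (392 to 443) and 287 ± 17.9 FPKM in ANG II (264 to 301; ± SD of 4 libraries). Without Ces1d, the other 3 summed to 278 ± 18.4 FPKM (260.1 to 303.7) and 251 ± 6.86 FPKM (242 to 257), a much smaller gap. Ces1d made up 33.2 ± 1.39% of the 4-gene sum in control and 12.4 ± 3.20% in ANG II. The share of Pnpla2 was 41.5 ± 1.89% and 48.3 ± 1.00%, and that of Mgll 21.8 ± 1.54% and 34.1 ± 3.71%. In these 3 shares the groups did not overlap. The shares add up to the whole, so the lower share of Ces1d by itself raises the others. Pnpla2 itself was lower in ANG II, and the sign of Mgll followed the scaling. Lipe had the smallest share, 3.51 ± 0.783% in the controls and 5.14 ± 0.503% with ANG II, and there the groups overlapped. A single scaling factor per library cancels in these shares, whereas quantile normalization would alter them. The ratio of Pnpla2 to Ces1d, which carries the same Ces1d difference, was 1.25 ± 0.107 in control and 4.12 ± 1.21 in ANG II (± SD of 4 libraries).

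**Figure D2:**
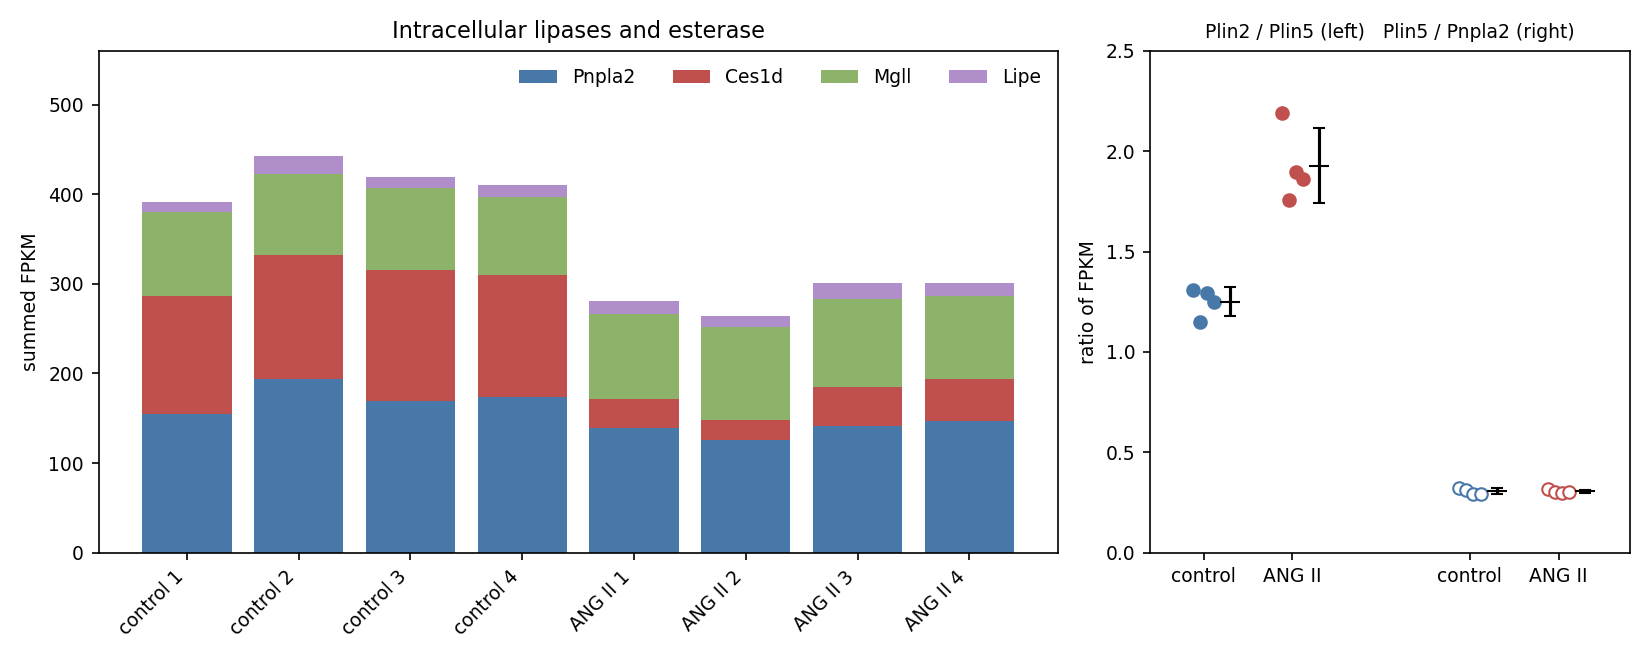
Left, stacked FPKM of Pnpla2, Ces1d, Mgll and Lipe in each library; right, ratio of FPKM of Plin2 to Plin5 (filled) and of Plin5 to Pnpla2 (open) per library, with mean and SD (n = 4). The Ces1d band was 31.4 to 34.7% of the stack in control and 8.28 to 15.4% in ANG II, and the Plin5 to Pnpla2 ratio was 0.305 on average in each group.

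Lpl (ENSMUSG00000015568; chromosome 8, 68880491 to 68907448, plus strand), the enzyme that frees fatty acids from circulating triglyceride, was by far the most abundant of the 10. Its level was 2195, 2220.05, 2381 and 2268 FPKM in control 1 to 4 and 1951, 2015, 2155 and 2337 FPKM in ANG II 1 to 4. ANG II 4 lay within the control values and the groups overlapped. They did not overlap, with ANG II lower, without ANG II 4, with the median-of-ratios scaling, or without mitochondrially encoded and the 10 most abundant genes. The mean was 2266 ± 82.4 FPKM in the controls and 2115 ± 171 FPKM with ANG II (± SD of 4 libraries), and the log2 fold change was -0.10 (SE 0.072), or -0.33 with the median-of-ratios scaling.

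Gpihbp1 (ENSMUSG00000022579; chromosome 15, 75596628 to 75599481, plus strand), the endothelial carrier of LPL, had levels of 52.5, 63.6, 58.7 and 64.8 FPKM in control 1 to 4 and 84.0, 56.6, 80.3 and 73.2 FPKM in ANG II 1 to 4. ANG II 2 lay among the control libraries and the other 3 ANG II libraries lay above them. The log2 fold change was 0.28 (SE 0.12), 0.40 without ANG II 2, when the groups did not overlap, and 0.054 with the median-of-ratios scaling. The summed level of 10 endothelial markers, none at 0, was 591 to 619 FPKM in control and 648 to 737 FPKM in ANG II, with 1 of the 10 (Pecam1) called, higher. Of the 10, 2 had a lower mean in ANG II, Kdr (78.6 and 71.2 FPKM) and Cldn5 (20.8 and 20.7 FPKM), without a call. The part of endothelial cells in the Gpihbp1 values was not tested. The ratio of Lpl to Gpihbp1 was 38.1 ± 3.64 in the controls and 29.4 ± 5.46 with ANG II (± SD of 4 libraries), and the groups overlapped.

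Angptl4 (ENSMUSG00000002289; chromosome 17, 33773750 to 33781830, minus strand), the inhibitor of LPL, is a gene that fasting and fatty acids are known to induce. Its level was 6.57, 40.3, 6.61 and 7.00 FPKM in control 1 to 4 and 23.9, 8.79, 15.5 and 12.7 FPKM in ANG II 1 to 4. Control 2 was the highest of all 8 libraries and the other 3 control libraries were the lowest, so the groups overlapped. With all libraries the means were 15.1 ± 16.8 and 15.2 ± 6.39 FPKM (± SD of 4 libraries), and the log2 fold change was 0.38 (SE 0.53). Without control 2, the control mean was 6.72 ± 0.236 FPKM (SD, n = 3) and the log2 fold change was 0.99 (SE 0.26), past both thresholds. The groups then no longer overlapped, by construction, since the other 3 control libraries were the lowest of all. Nothing is read from this call. The log2 fold change was 0.60 without ANG II 2, 0.15 without ANG II 1, and 0.17, 0.17 and 0.20 without control 1, 3 or 4, with an SE above 0.5 in each of these 5.

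Plin5 (ENSMUSG00000011305; chromosome 17, 56111601 to 56117596, minus strand), the coat protein that binds PNPLA2, had levels of 49.9, 60.4, 49.8 and 50.96 FPKM in control 1 to 4 and 43.8, 38.2, 42.1 and 44.6 FPKM in ANG II 1 to 4. The groups did not overlap, with control 2 above the rest and ANG II 2 below. The mean was 52.8 ± 5.12 FPKM in the controls and 42.2 ± 2.85 FPKM with ANG II (± SD of 4 libraries), 79.96% of control, with a log2 fold change of -0.31 (SE 0.076). It was -0.25 without control 2 and -0.27 without ANG II 2, and the groups did not overlap in either case, and with the median-of-ratios scaling it was -0.54, past both thresholds. The ratio of Plin5 to Pnpla2 was 0.305 ± 0.0145 in the controls and 0.305 ± 0.00778 with ANG II (± SD of 4 libraries). The ratio lay between 0.293 and 0.322 in all 8 libraries, a narrower relative range than that of either gene. Whether other pairs of genes with like fold changes held their ratio as closely was not tested.

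Plin2 (ENSMUSG00000028494; chromosome 4, 86648386 to 86670060, minus strand), the coat protein of most cell types, had levels of 65.2, 69.3, 64.5 and 63.7 FPKM in control 1 to 4 and 96.1, 67.1, 79.9 and 83.1 FPKM in ANG II 1 to 4. ANG II 2 lay under control 2, and the other 3 ANG II libraries were above every control library. The mean was 65.7 ± 2.48 FPKM in the controls and 81.5 ± 11.9 FPKM with ANG II (± SD of 4 libraries), with a log2 fold change of 0.30 (SE 0.093) as deposited and 0.071 with the median-of-ratios scaling. The groups did not overlap without control 2 (log2 fold change 0.32) or without ANG II 2 (0.39). The ratio of Plin2 to Plin5, in which a single factor per library cancels, was 1.25 ± 0.073 in control (1.15 to 1.31) and 1.93 ± 0.186 in ANG II (1.76 to 2.19; ± SD of 4 libraries), with no overlap. The Plin2 transcripts share 2.57% of their 50-base words with other genes, most of them with Gm12551.

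**Figure D3:**
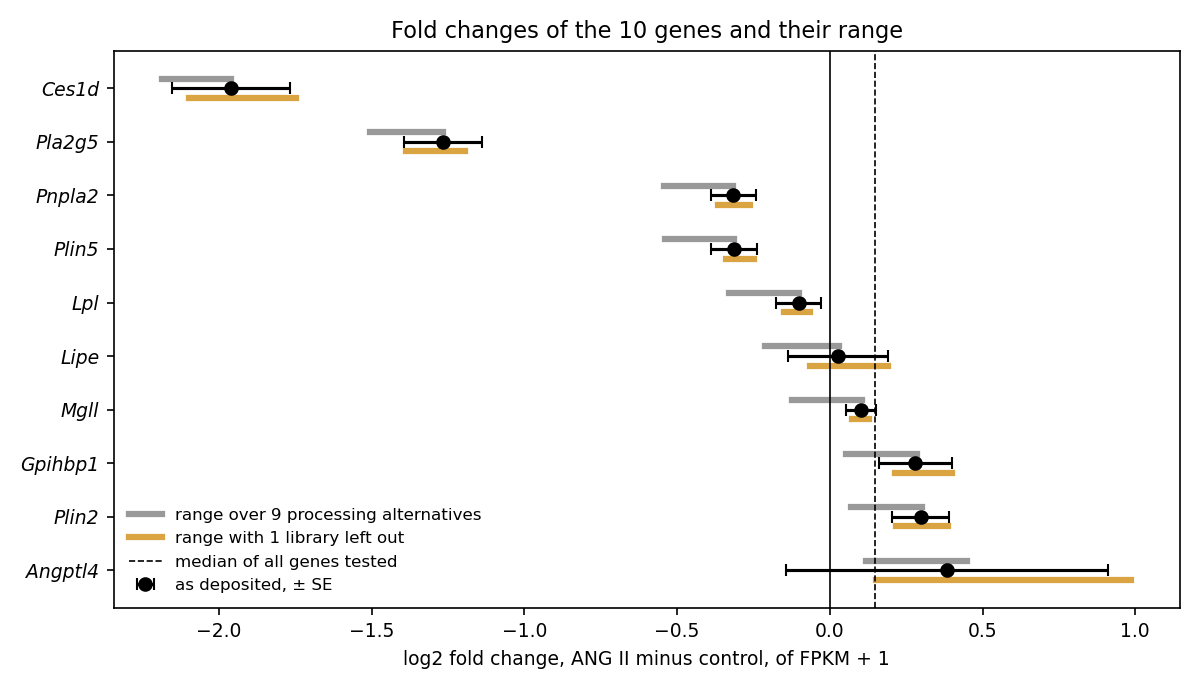
Log2 fold change (ANG II minus control, of FPKM + 1, horizontal axis) of the 10 genes with its SE, its range over 9 other ways of processing (grey) and its range with 1 library left out (orange); the dashed line is the median of all genes tested, 0.15. Ces1d and Pla2g5 stayed below -1 in each setting drawn, whereas Lipe crossed 0 and Angptl4 reached 0.99 without control 2.

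In control, the order of mean levels was Lpl, Pnpla2, Ces1d, Mgll, Plin2, Gpihbp1, Plin5, Pla2g5, Angptl4 and Lipe. Of the 9 pairs of neighbours in this order, 4 overlapped: Plin2 with Gpihbp1, Gpihbp1 with Plin5, Pla2g5 with Angptl4, and Angptl4 with Lipe. In ANG II, the order was Lpl, Pnpla2, Mgll, Plin2, Gpihbp1, Plin5, Ces1d, Angptl4, Lipe and Pla2g5, and 6 of the 9 pairs overlapped. Ces1d thus went from place 3 to place 7, where it overlapped with Plin5 above it and with Angptl4 below it. Pla2g5 went from place 8 to place 10, and Mgll (97.3 ± 4.87 FPKM) stood at place 3 in ANG II without having a called difference.

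The libraries differed in how they ranked within their own group. Control 2 was the highest control library for 6 of the 10 genes (Pla2g5, Pnpla2, Lipe, Angptl4, Plin5 and Plin2) and the lowest for 0 of them, and control 1 was the lowest for 6. ANG II 2 was the lowest ANG II library for 7 of the 10 genes and the highest for Mgll alone. How often each library was highest or lowest over all genes was not counted, so these counts describe the 10 genes alone. On the log2 scale, control 2 exceeded the control median by 2.40 for Angptl4, 0.60 for Lipe, 0.26 for Plin5 and 0.17 for Pnpla2. ANG II 2 lay under the ANG II median by more than any other ANG II library for Ces1d (-0.76), Angptl4 (-0.62), Gpihbp1 (-0.43), Plin2 (-0.28) and Lipe (-0.28).

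**Figure D4:**
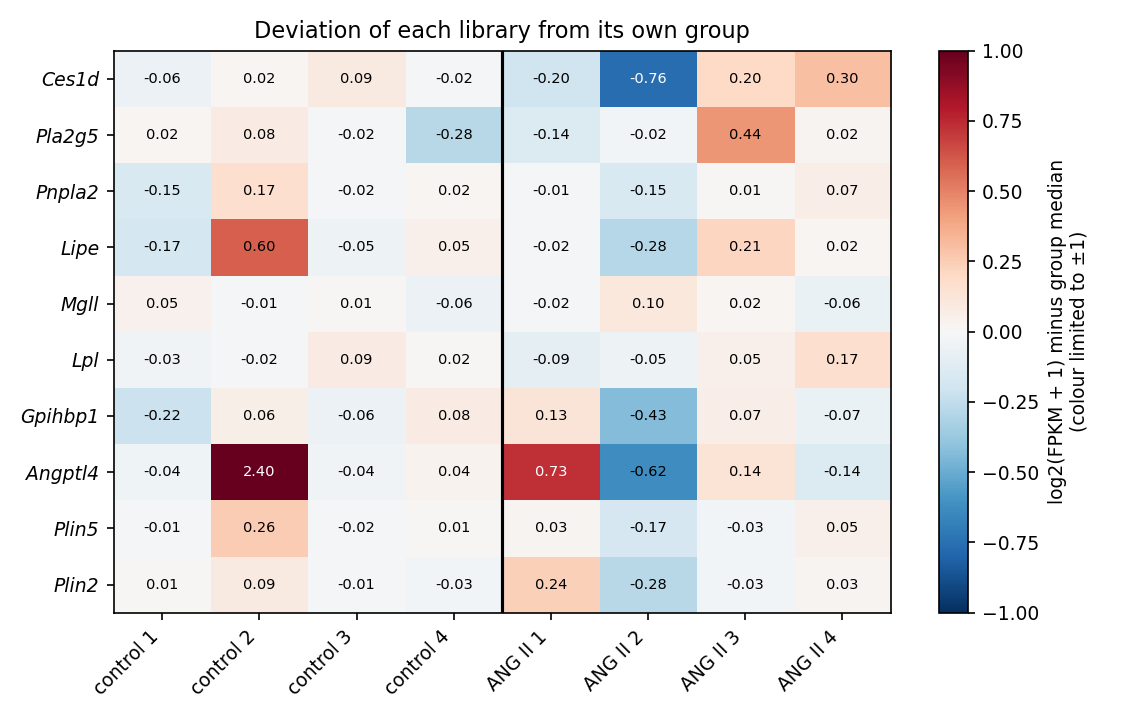
Each cell gives log2(FPKM + 1) of a library minus the median of its own group, for the 10 genes (rows) in the 8 libraries (columns); red is above and blue below the group median, with the colour limited at 1 in each direction. Control 2 reached 2.40 for Angptl4 and 0.60 for Lipe, and ANG II 2 reached -0.76 for Ces1d.

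Other genes of these pathways were read from 7 lists of 112 genes in all, 81 of which passed the filter and were tested by limma with Benjamini-Hochberg adjustment over all 19364 genes. Of the 81, 16 rose and 2 fell (22.2% called, against 15.4% of all genes tested), and their median log2 fold change was 0.11, against 0.15 for all genes tested. The lists were drawn up with earlier results of this comparison known, so these counts and the p-values below are not independent evidence, and nothing is read from the difference in shares. With the median-of-ratios scaling the split was 10 higher and 8 lower, and 12 of the 18 genes called as deposited were called in the same direction.

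Among 15 droplet proteins and regulators of lipolysis, 2 rose and 1 fell, with a median log2 fold change of -0.10. With the median-of-ratios scaling the balance turned, with 1 called higher (Lipa) and 3 lower (Fitm1, Fitm2 and Nceh1). Lipa, the acid lipase of lysosomes, rose from 15.1 ± 0.820 to 29.8 ± 1.45 FPKM (± SD of 4 libraries; limma log2 fold change 0.93, SE 0.061, adjusted p = 8.30e-06). Cidea, which promotes droplet fusion, rose from 16.0 ± 1.98 to 23.8 ± 2.17 FPKM (log2 fold change 0.55, limma adjusted p = 0.00198), but fell short of the fold threshold with the median-of-ratios (0.33) and quantile scaling (0.32), without mitochondrially encoded and the 10 most abundant genes (0.41), and without control 4 (0.47). Fitm1, a protein of droplet budding, fell from 21.4 ± 3.18 to 14.3 ± 2.80 FPKM (log2 fold change -0.55, limma adjusted p = 0.0102). The call of Fitm1 was lost without control 2 (-0.46) and without ANG II 4 (-0.48). The direct partners of PNPLA2 and of the perilipins were not called. Abhd5, its coactivator, was at 29.8 FPKM in the controls and 27.8 FPKM with ANG II (limma adjusted p = 0.366), G0s2, its inhibitor, at 37.4 and 33.9 FPKM (0.52), and Hilpda, a hypoxia-induced inhibitor, at 3.49 and 4.52 FPKM (0.0625). Plin3 was at 84.2 and 73.7 FPKM and Plin4 at 29.2 and 27.9 FPKM, while Plin1, the coat protein of fat cells, was at 0.418 and 0.315 FPKM with 0 to 15 fragments per library. The ratio of Pnpla2 to Abhd5 was 5.85 ± 1.02 in the controls and 5.005 ± 0.342 with ANG II (± SD of 4 libraries), and that of Pnpla2 to G0s2 was 4.83 ± 1.36 and 4.11 ± 0.243. For both ratios the groups overlapped.

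Of 12 genes of triglyceride synthesis tested, 1 fell and 0 rose (2 were higher and 3 lower at an unadjusted p under 0.05, and voom called 1 higher and 1 lower), with a median log2 fold change of -0.028. The number lower was 3 with the median-of-ratios scaling (Lpin1, Dgat2 and Mogat2) and 4 with the quantile scaling (Gpat3 as well). Dgat2, which adds the last fatty acid, fell from 304 ± 24.95 to 196 ± 15.0 FPKM (± SD of 4 libraries; log2 fold change -0.63, SE 0.074, limma adjusted p = 2.09e-04), and was called in each of the 17 alternatives run for single genes. Of 8 genes of monoacylglycerol and endocannabinoid turnover, 1 rose and 0 fell (7 were higher and 0 lower at an unadjusted p under 0.05, and voom called 6 higher and 0 lower), with a median log2 fold change of 0.37. With the median-of-ratios and with the quantile scaling, limma called 0 of the 8. Naaa, a lysosomal amidase of fatty acid ethanolamides, rose from 10.2 ± 2.12 to 15.6 ± 1.45 FPKM (log2 fold change 0.58, limma adjusted p = 0.00547), but stood at 0.37 with the median-of-ratios scaling, 0.34 with the quantile scaling and 0.45 without mitochondrially encoded and the 10 most abundant genes, short of a call.

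Of 11 genes of LPL handling tested, 2 rose and 0 fell (4 were higher and 1 lower at an unadjusted p under 0.05, and voom called 2 higher and 0 lower), with a median log2 fold change of 0.012. With the median-of-ratios and with the quantile scaling, the split was 1 higher (Lrp1) and 1 lower (Vldlr, at -0.59 and -0.54 on the log2 scale). Lrp1, an endocytic receptor of lipoprotein remnants and many other ligands, rose from 69.7 ± 7.17 to 154 ± 13.1 FPKM (± SD of 4 libraries; log2 fold change 1.13, SE 0.085, limma adjusted p = 1.84e-05). Pcsk5, a proprotein convertase, rose from 0.810 to 1.72 FPKM (log2 fold change 0.58, limma adjusted p = 0.00395), and its 0.46 with the median-of-ratios and 0.35 with the quantile scaling were short of a call. Lmf1, which folds LPL in the endoplasmic reticulum, was at 9.22 FPKM in the controls and 8.61 FPKM with ANG II and was not called (limma adjusted p = 0.469).

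Of 19 other carboxylesterases, 9 were listed at 0 in all libraries and 4 were tested, and limma called 0 of these (0 at an unadjusted p under 0.05, and 0 by voom). Their median log2 fold change was 0.0028. Ces1d was thus the sole carboxylesterase of the lists above 2 FPKM in these ventricles. Of 15 other phospholipases A2 and related genes tested, 5 rose and 0 fell (6 were higher and 2 lower at an unadjusted p under 0.05, and voom called 5 higher and 0 lower), with a median log2 fold change of 0.042. With the median-of-ratios and with the quantile scaling, 3 were called higher and 0 lower. Pla2g7, the platelet-activating factor acetylhydrolase of macrophages, rose from 5.23 ± 0.784 to 18.7 ± 1.71 FPKM (± SD of 4 libraries; log2 fold change 1.66, SE 0.10, limma adjusted p = 5.81e-06). Pla2g4a, the cytosolic enzyme that frees arachidonic acid, rose from 2.67 ± 0.525 to 7.74 ± 1.19 FPKM (log2 fold change 1.25, limma adjusted p = 1.39e-04). Pla2g15, a lysosomal enzyme, rose from 5.68 ± 1.12 to 11.96 ± 0.494 FPKM (log2 fold change 0.97, limma adjusted p = 2.195e-04). In control, Pla2g5 at 26.7 FPKM stood above these 3, and in ANG II at 10.6 FPKM it stood below Pla2g7. In ANG II the Pla2g5 libraries (8.88 to 13.8 FPKM) overlapped with those of Pla2g15 (11.4 to 12.6 FPKM).

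Of 16 genes of eicosanoid synthesis, which use the arachidonic acid that phospholipases release, 6 rose and 0 fell (9 were higher and 2 lower at an unadjusted p under 0.05, and voom called 7 higher and 0 lower), with a median log2 fold change of 0.40. With the median-of-ratios and with the quantile scaling, the split was 5 higher and 1 lower (Alox5, at -0.53 and -0.63 on the log2 scale). Hpgds, a prostaglandin D synthase of blood-derived cells, rose from 1.28 ± 0.613 to 5.03 ± 0.886 FPKM (± SD of 4 libraries; log2 fold change 1.43, limma adjusted p = 4.14e-04). Ptgis, prostacyclin synthase, rose from 8.91 ± 1.61 to 23.8 ± 0.827 FPKM (log2 fold change 1.34, limma adjusted p = 3.45e-05). Alox5ap, the activator of 5-lipoxygenase, rose from 2.17 ± 0.597 to 5.35 ± 0.487 FPKM (log2 fold change 1.02, limma adjusted p = 6.50e-04). Macrophage markers (7 genes, none at 0) summed to 223 to 288 FPKM in control and 490.1 to 689 FPKM in ANG II, with 7 of 7 called higher. Fibroblast markers (5 genes, none at 0) summed to 324 to 454 FPKM in control and 1174 to 1319 FPKM in ANG II, with 5 of 5 called higher. Erythroid markers (5 genes, none at 0 in all libraries) summed to 96.8 to 487 FPKM in the controls and 581 to 2083 FPKM with ANG II, with 5 of 5 called higher and ANG II 2 the highest library. The part of these cell types in the phospholipase and eicosanoid values, Hpgds included, was not tested. Nor was their part in the values of Plin2, Lipa, Cidea, Naaa, Lrp1 and Pcsk5 given above.

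**Figure D5:**
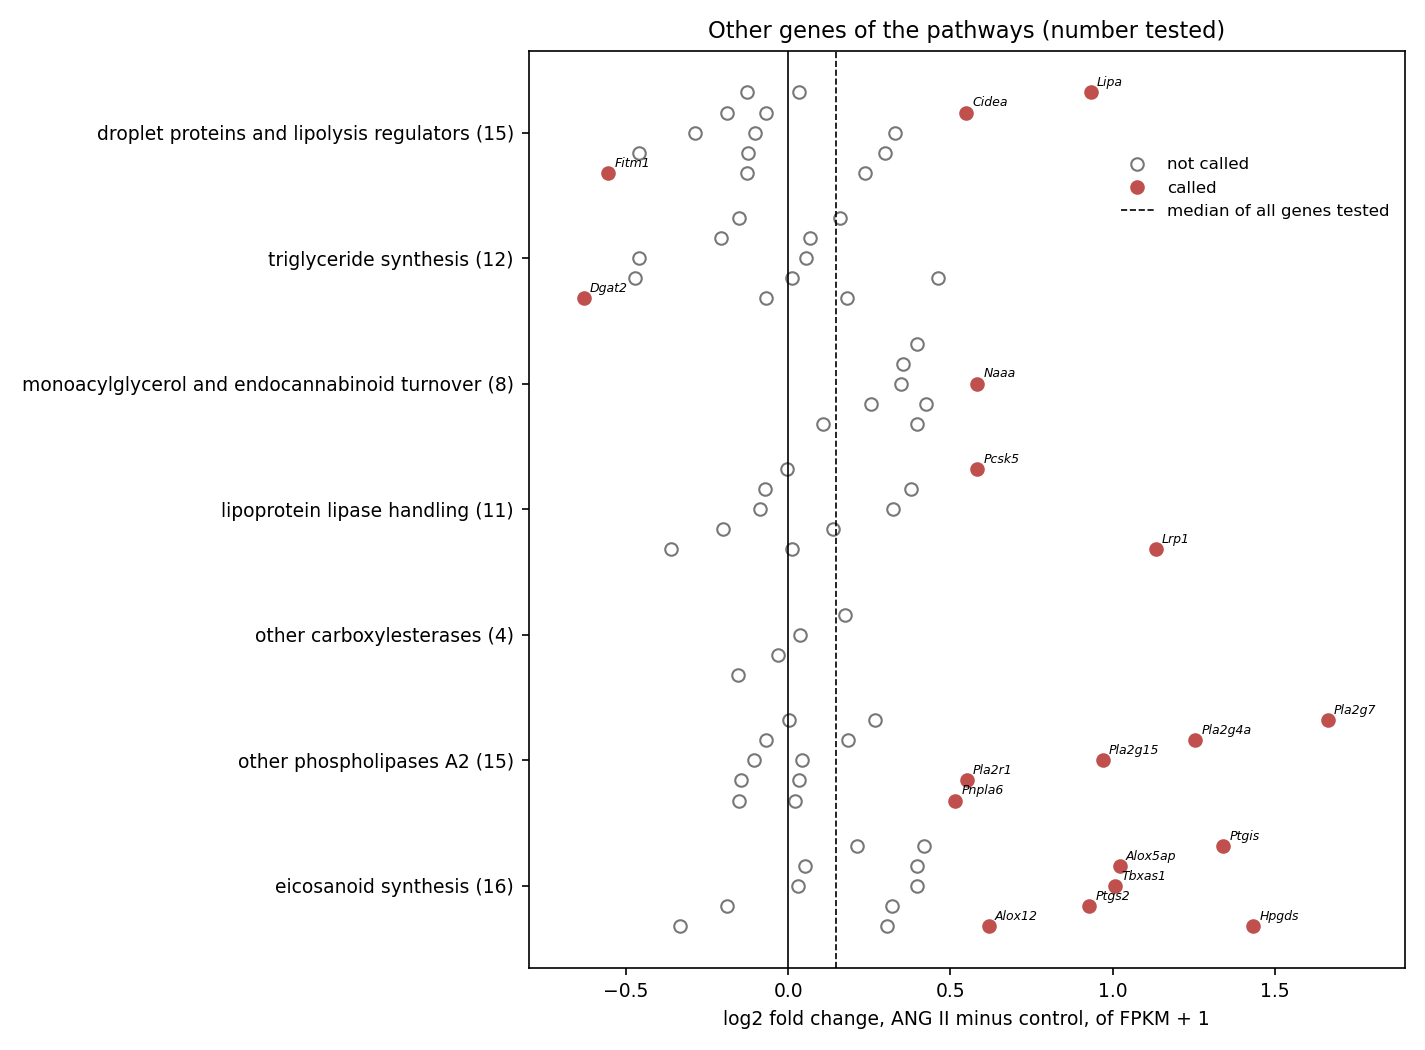
Log2 fold change (ANG II minus control, of FPKM + 1, horizontal axis) of the 81 genes tested in the 7 lists (vertical axis, with the number tested); filled points were called by limma and are named, and the dashed line is the median of all genes tested. The called genes were 16 to the right of 0 and 2, Dgat2 and Fitm1, to the left.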

How the data were processed

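RNA-seq libraries of 4 control and 4 ANG II left ventricles (paired reads, oligo(dT) enrichment) were grouped by their titles. The authors deposited 1 table of FPKM values with a column per library and no pooling, and no column was left out. The submitters' processing notes name Bowtie2, HISAT and RSEM without roles or versions, and the genome build, annotation and use of strand were not given in the sources used here. The study describes more replicates than these 8 libraries, and the others were not analysed here. Whether the samples were separate animals follows from the study's methods alone. The p-values set the difference between the groups against the spread within the groups of these 8 samples.

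Fragments were recovered by multiplying FPKM by each gene's average transcript length (GENCODE M21, GRCm38; that release held 55141 of the 55679 gene IDs). Of values under 60 fragments, 98.1 to 98.5% per library came out whole within 0.05. Libraries carried no molecular identifiers, so fragment numbers give counting error only.

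The comparison used limma 3.58.1 in R 4.3.3 (variance trend, no covariate, no replicate block) on log2(FPKM + 1) for the 19364 genes whose mean reached 0.1 FPKM, two-sided, with Benjamini-Hochberg adjustment over all of them. Fold changes on this scale understate those of low genes. The study names limma and both thresholds, and the pseudocount, the filter and base 2 were choices made here. Levels, ratios and motifs were computed in Python 3.11.15 with numpy 2.4.6 and pandas 2.3.3, and figures were drawn with matplotlib 3.10.9.

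The members and the lists of pathway and marker genes were chosen with earlier results of these data known. The text names the 10 members, up to 3 called genes of each pathway list with the largest absolute log2 fold change, 7 direct partners (Abhd5, G0s2, Hilpda, Plin1, Plin3, Plin4 and Lmf1) and the 5 nearest profiles of Ces1d and of Pla2g5, passing over names that hold an ID alone. Other genes are named only to identify a relative, a marker or an overlap. Of the remaining marker lists, atrial genes (3) summed to 1.15 to 48.8 FPKM in control and 52.5 to 230.5 FPKM in ANG II (1 called higher), brown adipocyte genes (3) to 13.4 to 18.2 and 21.8 to 25.9 FPKM (nearly all Cidea, the 1 called, higher, with Elovl3 at 0), and smooth muscle genes (4) to 95.6 to 164 and 102 to 129 FPKM (1 called higher). The atrial sums did not overlap between the groups, and the part of atrial tissue in the values of the members and pathway genes was not tested. Mitochondrially encoded genes took 26.5 ± 0.303% of fragments in the controls and 19.97 ± 1.25% with ANG II (± SD of 4 libraries).

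The alternatives were a pseudocount of 0.1, no filter, a mean of at least 1 FPKM, median-of-ratios scaling, quantile normalization, removal of mitochondrially encoded genes and the 10 most abundant genes, a block for the replicate number, no variance trend, voom on the recovered fragments, a fold threshold of 1, and each library left out in turn. The order of libraries within groups was recomputed under 3 scalings, an alternative chosen after seeing the data.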

Additional observations from a re-analysis of the deposited data

Results flagged for a closer look

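For the 10 genes and 20 named pathway genes, the 4 libraries of each group were read for a single library whose gap to its nearest neighbour took up more of the group's range than Dixon's 95% limit for 4 samples. Of 60 groups of libraries read, 3 passed this limit, and chance alone flags about 1 group in 20.

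Angptl4 was at 40.3 FPKM in control 2, and the next control library was at 7.00 FPKM, a gap of 0.987 of the range. Plin5 was at 60.4 FPKM in control 2 and the next control library at 50.96 FPKM, a gap of 0.890 of the range. Lmf1, which folds LPL, was at 7.65 FPKM in ANG II 1 and the next ANG II library at 8.87 FPKM, a gap of 0.869 of the range.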

How the results depend on the processing

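Of the 10 genes and the 20 named pathway genes, for which the alternatives were run singly, none that was called turned sign. The split of calls depended on the scaling: of all genes, 1670 were higher and 804 lower with the median-of-ratios scaling, 1413 and 986 with quantile normalization, and 536 were lower without mitochondrially encoded and the top 10 genes. Calls were higher for 90.8% of called genes as deposited and for 67.5%, 58.9% and 78.7% under these 3, and the median log2 fold change of all genes moved from 0.15 to 0.0040, -0.044 and 0.054. The pathway lists had 10 higher and 8 lower calls under the first 2 and 6 lower under the third. The libraries' size factors were 0.908 to 0.957 in control and 1.07 to 1.11 in ANG II, and why they differ was not tested. With a fold threshold of 1, 795 genes were called, 767 higher and 28 lower, and 7 pathway genes, 7 higher and 0 lower by limma (0 below -1 at an unadjusted p under 0.05, and 0 by voom).

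Leaving out 1 library gave 2763 to 3109 genes called (2505 to 2838 higher, 247 to 298 lower) and 16 to 20 pathway genes (14 to 17 higher, 1 to 3 lower). The pathway count lower was 1 without control 2 and 1 without ANG II 4, where Fitm1 was lost. The number of the 10 genes without overlap was 4 to 6 with 1 library left out and 4 to 5 under other scalings (36.3 to 39.4% and 28.8 to 29.5% of all genes tested). With 1 library fewer, groups fail to overlap more often by construction, so nothing is read from these counts. Besides Ces1d and Pla2g5, Pnpla2 and Plin5 were called with the median-of-ratios scaling, Pnpla2 with quantile normalization, and Angptl4 without control 2 (12.8%, 12.4% and 15.7% of all genes tested). With the replicate number as a block, 2968 genes were called against 2981 without. The deviations of same-numbered libraries had correlations of -0.012, 0.092, -0.043 and 0.00074, and that of control 1 with ANG II 3 was 0.15. These values showed no pairing by number but cannot exclude one. A pseudocount of 0.1 gave 3816 calls and voom 3997.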

Other observations

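Control 2 stood far above its group in few genes. Of 12947 genes whose mean reached 1 FPKM, 11 were at least 2-fold above the next control library in control 2 (on FPKM + 1), against 4 to 30 in each of the other 7 libraries within their own groups. Angptl4 led them at 5.16 times the next library. Also among the 11, and named after their values were seen, were Scd4, Ucp3, Pdk4 and Pnpla3, and the rest were small RNAs or predicted genes with a Gm number. Ucp3, an uncoupling protein of muscle mitochondria, was at 65.6 FPKM in control 2 and 13.3 to 24.5 FPKM in the other control libraries. Pdk4, a kinase that restrains glucose oxidation, was at 1268 FPKM in control 2 and 239 to 609 FPKM in the others. Scd4, a stearoyl-CoA desaturase, was at 13.5 FPKM and 3.04 to 3.65 FPKM, and Pnpla3, a relative of Pnpla2, at 3.56 FPKM and 0.599 to 1.21 FPKM. In ANG II, these 4 genes ranged from 8.72 to 15.6 FPKM (Ucp3), 243 to 420.1 FPKM (Pdk4), 3.60 to 6.29 FPKM (Scd4) and 0.697 to 1.55 FPKM (Pnpla3).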
